A study of Mus musculus with 18 samples.

Results

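The genes of the nuclear oxidative phosphorylation subunits were followed across white adipose tissue of C57BL/6 mice kept on a regular or a shiftwork light schedule. They were chosen by symbol alone: every gene whose symbol starts with Ndufa, Ndufb, Ndufc, Ndufs or Ndufv and a digit, with Uqcr, with Atp5 or with Cox and a digit of 4 to 8, together with Sdha, Sdhb, Sdhc and Sdhd. Pseudogene symbols ending in -ps and the brown fat isoforms Cox7a1 and Cox8b were left out. This gave 82 genes, present in both tables, of 24091 symbols in the epididymal table and 51826 identifiers in the inguinal table. By symbol, 37 genes belonged to complex I, 4 to complex II, 8 to complex III, 16 to complex IV and 17 to complex V.

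Oxidative phosphorylation runs on protein complexes of the inner mitochondrial membrane. Complex I (NADH dehydrogenase) and complex II (succinate dehydrogenase) pass electrons to ubiquinone, complex III (cytochrome bc1) passes them to cytochrome c, complex IV (cytochrome c oxidase) reduces oxygen, and complex V (ATP synthase) uses the proton gradient to make ATP. Most subunits are encoded in the nucleus, while a few catalytic subunits of complexes I, III, IV and V are encoded by mitochondrial DNA, so a working chain needs transcripts from both genomes. In white adipocytes the chain supports adipogenesis, lipid synthesis and the secretion of adiponectin.

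All mice were C57BL/6. Control mice lived in 12 h of light and 12 h of dark. For shiftwork mice this cycle held on 4 days of the week and was reversed on the other 3, over 24 weeks. Epididymal white fat (eWAT, a visceral depot) was collected at ZT3 and at ZT12, the hours after lights-on of the regular cycle, and subcutaneous inguinal white fat (iWAT) at ZT3. Each of the 6 groups had 3 libraries. The labels used here give no age and do not say that libraries of a group came from separate animals, so p-values measure the spread between these samples. The 3 iWAT control libraries bear the label numbers 14, 15 and 16 and 1 iWAT shiftwork library the number 45, which are also the numbers of eWAT libraries collected at ZT12. If these numbers stand for animals, the iWAT may come from mice sampled at ZT12, so ZT3 for iWAT is given here as labelled. Among clock genes, listed after seeing these numbers, Per2 was at 29.3 to 40.7 CPM in the iWAT control libraries, against 24.1 to 45.2 CPM in eWAT control at ZT3 and 79.0 to 99.2 CPM at ZT12. Nr1d1 was at 258 to 399 CPM, against 138 to 203 and 80.7 to 84.5 CPM, whereas Arntl at 5.74 to 20.8 CPM lay between eWAT ZT3 (20.3 to 52.4 CPM) and ZT12 (4.56 to 5.58 CPM) with a small overlap with ZT3. Dbp at 110.6 to 197 CPM was above both. Tef at 197 to 279 CPM was above eWAT ZT3 (71.1 to 157 CPM) and around ZT12 (218 to 264 CPM). Per3 overlapped both times, with replicates 1 and 3 (114 and 120 CPM) inside the ZT12 range (95.5 to 127 CPM). Npas2 lay between the times without overlap. Per1 and Nr1d2 overlapped ZT3 and were below ZT12, and Ciart overlapped both. The listed genes thus pointed different ways, and the collection time of iWAT was not settled by them. The tissue was whole fat, so fewer cells of a type and less RNA per cell cannot be told apart.

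Reads assigned to genes ran from 20352008 to 72276733 per eWAT library (12) and from 28544338 to 55639501 per iWAT library (6). The 82 genes took 0.639 to 1.04 percent of reads in eWAT and 0.802 to 1.12 percent in iWAT. Adipocyte markers (12 genes, none at 0 in any library) summed to 17424 to 51189.5 CPM (reads scaled to library size) in eWAT libraries. Their sums in iWAT were 20713 to 45477 CPM. Some libraries stood apart by transcripts of other tissues. In eWAT, ZT3 control replicates 1 and 3 were high for a list of 6 vas deferens and epididymis markers (11373 and 11991 CPM in sum, against 11.5 in replicate 2). Most of each sum was Akr1b7 (9039 and 9325 CPM), and 2 and 3 of the 6 genes were over 1 CPM. The same replicates had the highest smooth muscle sums of eWAT (10729 and 8075 CPM). ZT3 shiftwork replicate 3 carried spermatid markers (5394 CPM against at most 74.6 in any other eWAT library). ZT12 shiftwork replicate 2 carried intestine markers at a lower level (483 CPM, next 36.1). In iWAT, control replicates 1 and 2 carried B cell markers (3112 and 5089 CPM, against 587 or less in control replicate 3 and 1073 or less in the shiftwork libraries), and shiftwork replicate 1 carried skeletal muscle markers (67630 CPM, next 1092). The medians and called counts of each comparison were therefore also taken without these libraries, but the counts of groups that did not overlap were not.

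Per unit of length, levels were described for the subunit genes alone and were not ranked against other genes. The median over the 82 genes was 52.2 FPKM (reads scaled to library size and gene length, as the authors computed it) in eWAT and 50.1 RPKM in iWAT, and 68 genes in eWAT and 70 in iWAT lay above 10. Complex II genes had the highest median in both depots, 81.1 FPKM in eWAT and 83.5 RPKM in iWAT, and the range within a complex was wide. Atp5b, the catalytic beta subunit of ATP synthase, led eWAT with a mean of 481 FPKM (329 to 626 over the 12 libraries) and iWAT with 325 RPKM (274 to 404 over 6). Cox4i1, the common isoform of a cytochrome c oxidase subunit, followed in eWAT with 277 FPKM, and Sdha, the flavoprotein of succinate dehydrogenase, reached 121 FPKM in eWAT and 115 RPKM in iWAT. Ranges over libraries of Atp5b and Cox4i1 (224 to 357 FPKM) overlapped in eWAT, while Sdha at 91.1 to 153 FPKM lay below both.

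A few genes were listed near 0 although their proteins are ordinary parts of the complexes. Atp5g1 and Atp5g2, which with Atp5g3 encode the identical c ring subunit of ATP synthase, had means of 0.801 and 0.397 FPKM in eWAT, and Atp5g3 had 216 FPKM. Cox7c, a small cytochrome c oxidase subunit, had 1.10 FPKM, and Atp5l, the g subunit of ATP synthase, 0.607 FPKM. Stretches of 51 bases, the read length, recurred in other annotated genes for 84.8 percent of the positions in Atp5l transcripts, 38.2 percent in Atp5g2, 22.9 percent in Cox7c and 10.9 percent in Atp5g1. Over the 81 genes with an annotated transcript, 17 shared more than 20 percent of their positions, so the levels of such genes are uncertain; whether this sharing set the low values was not tested. Levels of a gene also differed between tables through the length each used: Ndufb2, a small complex I subunit, had 40.98 FPKM in eWAT on a length of 0.451 kb and 3.62 RPKM in iWAT on 5.62 kb.

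The subunits moved as a block from library to library, and this spread was larger than the difference between the means of any pair of groups within a depot. For each library, a complex was summarised as the median over its tested genes of the log2 level minus that gene's own mean over the libraries of the depot. In eWAT, low counts left 78 of the 82 genes for testing (not Cox6a2, Cox7b2, Cox8c and Atp5g2), and in iWAT 80 (not Cox7b2 and Cox8c). Over all tested genes the eWAT summaries were -0.06, 0.27 and 0.15 in ZT3 control, 0.10, 0.40 and -0.49 in ZT3 shiftwork, -0.14, -0.23 and 0.09 in ZT12 control and 0.03, -0.14 and -0.03 in ZT12 shiftwork (replicates 1, 2 and 3). The highest and the lowest library both belonged to ZT3 shiftwork, and the ranges of the 4 groups overlapped. In iWAT the control libraries stood at -0.38, -0.19 and 0.36 and the shiftwork libraries at 0.28, 0.02 and -0.12, so that the shiftwork range lay inside the control range.

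**Figure D1:**
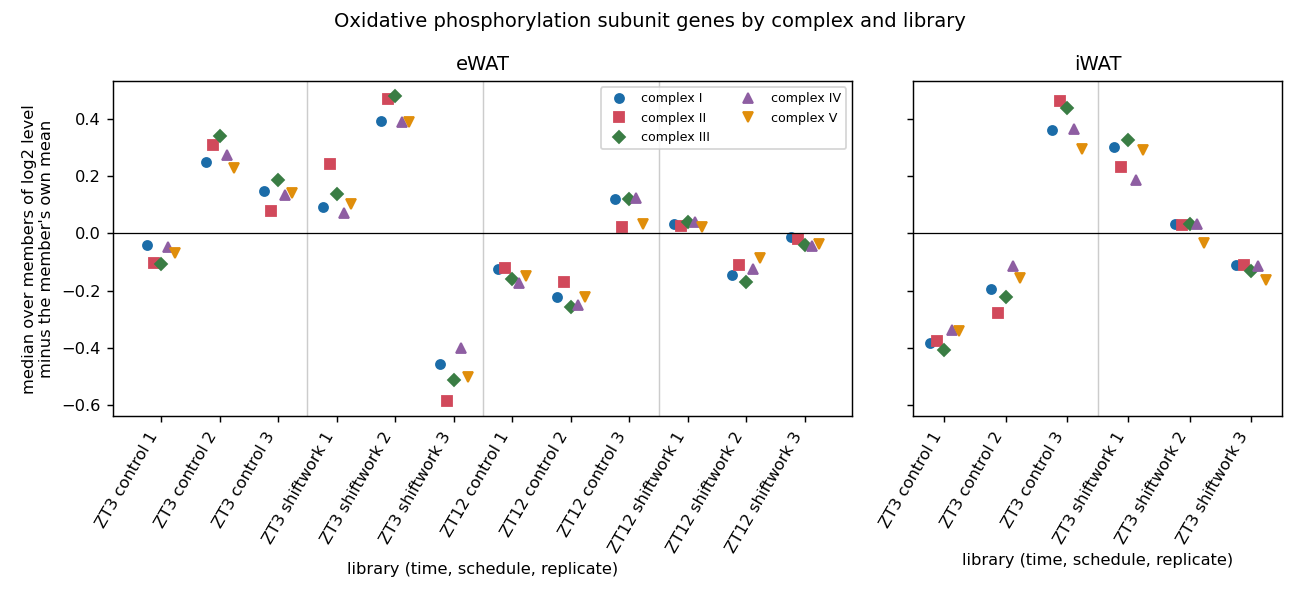
Points show, for each library on the x axis, the median over the tested genes of a complex of the log2 level minus the gene's own mean over the libraries of that depot (y axis, log2 units), with eWAT on the left and iWAT on the right. The 5 complexes sit close together within each library, from -0.59 to -0.40 in eWAT ZT3 shiftwork 3 and from 0.39 to 0.48 in ZT3 shiftwork 2.

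The 5 complexes had similar values in each library. In ZT3 shiftwork replicate 2 the complexes stood at 0.39 (I), 0.47 (II), 0.48 (III), 0.39 (IV) and 0.39 (V), and in replicate 3 at -0.45, -0.59, -0.51, -0.40 and -0.50. Across the 12 eWAT libraries, Pearson's r between the summaries of any pair of complexes ran from 0.943 (II and IV) to 0.995 (I and III). Across the 6 iWAT libraries it ran from 0.953 (II and V) to 0.998 (I and III). These are descriptions over libraries that share their depth and scaling. On the authors' own FPKM and RPKM scales the same libraries were extreme in eWAT (0.36 in ZT3 shiftwork replicate 2 and -0.35 in replicate 3), and in iWAT control replicates 1 and 3 stood at -0.18 and 0.26.

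Single genes showed the same swing. Atp5b was at 1057, 1640.0 and 1419 CPM in ZT3 control, 1385, 1649.5 and 749 CPM in ZT3 shiftwork, 1093, 1052 and 1235 CPM in ZT12 control and 1072, 1134 and 1232 CPM in ZT12 shiftwork. The lowest and the highest of these 12 values came from the same group. Ndufs1, the large iron-sulfur subunit of complex I, was at 134, 206 and 172 CPM in ZT3 control, 185, 209 and 111 CPM in ZT3 shiftwork, 132, 136 and 145 CPM in ZT12 control and 141, 139 and 144 CPM in ZT12 shiftwork. At ZT12 the 6 libraries lay within 132 to 145 CPM, whereas ZT3 ran from 111 to 209 CPM. The adipocyte marker sum was lowest and highest in the same libraries as the subunits, at 17424 CPM in ZT3 shiftwork replicate 3 and 51189.5 CPM in replicate 2; its part in the swing was not tested.

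Most genes followed the block and a few did not. The correlation of each gene with the median of the other tested genes had a median of 0.93 over 12 eWAT libraries and 0.953 over 6 iWAT libraries. It exceeded 0.8 for 63 of 78 genes in eWAT and 68 of 80 in iWAT, and it was under 0.5 for 8 and 10 genes. Over the 9 eWAT libraries without vas deferens or spermatid transcripts the median was 0.943, with 67 of 78 genes over 0.8 and 7 under 0.5. Core subunits and Cox4i1 were close to the block in eWAT. Ndufv1, which binds the flavin of complex I, had an r of 0.943 and Sdha 0.924. Sdhb, the iron-sulfur subunit of complex II, had 0.975, and Uqcrfs1, the Rieske iron-sulfur protein of complex III, 0.966. Cox4i1 had 0.974 and Atp5b 0.946. The genes that stood apart in eWAT were Cox6b2 (-0.71), Atp5sl (-0.46), Ndufa4l2 (-0.34), Atp5s (-0.28), Cox7a2l (-0.22), Atp5l (-0.14), Cox4i2 (0.23) and Atp5g1 (0.35). Several of these are not ordinary subunits. Atp5s and Atp5sl carry the ATP synthase prefix, but their products are coupling or assembly factors. Cox7a2l has been tied to the joining of complexes III and IV into supercomplexes, which was not examined in these mice. Ndufa4l2 and Cox4i2 are the oxygen-responsive relatives of Ndufa4 and Cox4i1, and Cox6b2 is a testis isoform.

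**Figure D2:**
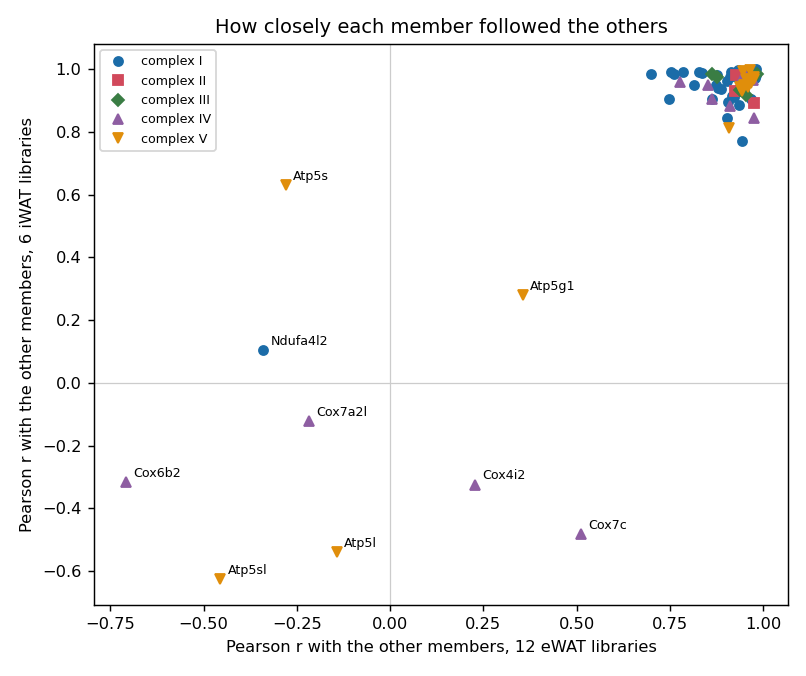
Each point is 1 gene, placed by its Pearson r with the median of the other subunit genes over 12 eWAT libraries (x axis) and over 6 iWAT libraries (y axis), both without units, with colour and shape for the complex. Most genes crowd at the upper right, and 9 named genes lie away from them, among them Cox6b2 at -0.71 and -0.32 and Atp5sl at -0.46 and -0.63.

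Because the genes moved together, their promoters were searched for motifs tied to respiratory gene control. RefSeq (GRCm38.p6) gave a promoter of 250 bases before and 50 bases after the start for 67 of the 82 genes, 3 of them matched by an older symbol. Motifs were searched as exact letters on both strands: CGCATGCG for NRF1, CCGGAAG for ETS factors such as GABPA, TCAAGGTCA for estrogen-related receptors, AAGATGGC for YY1, CACGTG for the E-box bound by clock factors, and ACGTG for hypoxia-inducible factors, which lies within every CACGTG. The NRF1 letters were found in 9 of 67 promoters (13.4 percent, against 2.07 percent over 27025 genes), the ETS letters in 16 (23.9 against 9.93 percent) and the YY1 letters in 11 (16.4 against 3.19 percent). The receptor letters were found in 2 (2.99 against 0.466 percent), the E-box in 7 (10.4 against 8.09 percent) and ACGTG in 17 (25.4 against 21.8 percent). Of the 11 YY1 matches, 7 were in complex I and 4 in complex V, and of the 7 E-boxes 5 were in complex V. Such matches are descriptions of letters, not of binding.

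The promoters below show how different the upstream sequences of genes with the same swing were. Motif letters are in capitals and all are printed 5′ to 3′ on the strand of the gene. Cox6a1, Uqcr11, Sdhd and Atp5b moved with the block, with r of 0.975, 0.962, 0.956 and 0.946 in eWAT. Cox6b2 had an r of -0.71, but it was at 49.2 CPM in ZT3 shiftwork replicate 3, the library with spermatid transcripts. It was at 3.61 CPM or less in the other eWAT libraries.
Cox6a1 (chr5:115348909-115349208, minus strand): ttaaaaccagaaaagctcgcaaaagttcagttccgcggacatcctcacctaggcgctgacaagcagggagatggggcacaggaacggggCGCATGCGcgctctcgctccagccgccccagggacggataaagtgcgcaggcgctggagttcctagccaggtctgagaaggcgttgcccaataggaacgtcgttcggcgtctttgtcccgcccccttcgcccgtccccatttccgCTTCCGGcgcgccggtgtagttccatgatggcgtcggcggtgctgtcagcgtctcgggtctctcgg
Uqcr11 (chr10:80406772-80407071, minus strand): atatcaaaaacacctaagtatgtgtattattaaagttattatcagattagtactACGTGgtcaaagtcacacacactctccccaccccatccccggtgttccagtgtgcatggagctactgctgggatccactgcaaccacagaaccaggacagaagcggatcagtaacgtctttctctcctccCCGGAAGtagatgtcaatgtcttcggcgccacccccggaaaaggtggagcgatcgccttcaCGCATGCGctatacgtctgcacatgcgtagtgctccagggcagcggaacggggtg
Sdhd (chr9:50603800-50604099, minus strand): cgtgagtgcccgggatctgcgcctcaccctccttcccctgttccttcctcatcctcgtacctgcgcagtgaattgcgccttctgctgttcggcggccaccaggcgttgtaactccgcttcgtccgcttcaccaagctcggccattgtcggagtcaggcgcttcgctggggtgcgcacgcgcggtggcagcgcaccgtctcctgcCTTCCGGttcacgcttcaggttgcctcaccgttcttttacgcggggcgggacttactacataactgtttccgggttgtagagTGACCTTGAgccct
Atp5b (chr10:128083057-128083356, plus strand): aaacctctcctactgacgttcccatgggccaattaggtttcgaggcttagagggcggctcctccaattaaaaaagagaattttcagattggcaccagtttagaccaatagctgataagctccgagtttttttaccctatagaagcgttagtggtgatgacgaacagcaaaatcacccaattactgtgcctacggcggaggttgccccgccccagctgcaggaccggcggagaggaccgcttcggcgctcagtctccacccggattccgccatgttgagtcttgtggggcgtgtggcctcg
Cox6b2 (chr7:4753045-4753344, minus strand): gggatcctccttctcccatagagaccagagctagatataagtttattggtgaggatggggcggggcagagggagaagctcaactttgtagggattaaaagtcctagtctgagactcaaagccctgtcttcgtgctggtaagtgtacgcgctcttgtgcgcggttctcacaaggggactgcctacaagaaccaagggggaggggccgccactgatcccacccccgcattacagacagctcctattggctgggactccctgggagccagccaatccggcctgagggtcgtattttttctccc

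The first holds the NRF1 letters and, on the other strand, the ETS letters. Uqcr11, a small complex III subunit, holds the ETS and NRF1 letters and ACGTG. Sdhd, a membrane anchor of complex II, holds the reverse complements of the ETS and receptor letters. Atp5b, the most abundant of these transcripts, holds none of the 6 searched motifs in this window, and neither does Cox6b2.

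The regular day was examined by comparing ZT12 with ZT3 in control eWAT. Most subunit genes were lower at ZT12, by amounts that did not pass the test: 72 of 78 were lower, with a median log2 difference of -0.21, while over all 15141 tested genes 51.3 percent were lower with a median of -0.01. Every complex had a negative median, at -0.19 (I), -0.22 (II), -0.22 (III), -0.23 (IV) and -0.22 (V), and all 4 genes of complex II, all 8 of complex III and all 16 tested of complex V were lower. With edgeR's quasi-likelihood test and Benjamini-Hochberg adjustment, 1 gene was called, Ndufa4l2, which was higher. The background was 3.69 percent of all genes called, 2.93 percent called and higher. At an unadjusted p under 0.05 there were 6 of 78 genes against 22.4 percent of all genes: Ndufa4l2, Cox4i2, Cox6c, Ndufv2, Ndufa12 and Ndufb5.

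The groups separated for few genes. The control libraries did not overlap for 2 genes that were higher at ZT12 (background 19.3 percent) and 6 that were lower (background 13.6 percent), namely Cox6c, Ndufv2, Uqcrc2, Ndufa11, Ndufb6 and Ndufb11. Cox6c, a small cytochrome c oxidase subunit, was at 88.6, 78.6 and 88.9 CPM at ZT3 and 59.2, 54.4 and 69.9 CPM at ZT12, a log2 difference of -0.48 ± 0.17 (SE; adjusted p = 0.132 by edgeR). Uqcrc2, a core protein of complex III, was at 160.4, 219.8 and 208 CPM against 135, 135 and 158 CPM, a difference of -0.46 ± 0.22 (adjusted p = 0.256 by edgeR). Its transcripts share 24.1 percent of their 51-base positions with another annotated gene. Core subunits and Cox4i1 overlapped between times. Ndufs1 was at 171 ± 35.9 CPM (SD, n = 3) at ZT3 and 138 ± 6.76 at ZT12, and Sdha at 508 ± 97.9 and 433 ± 29.7. Cox4i1 was at 311 ± 45.5 and 265 ± 41.97, and Atp5b at 1372 ± 294 and 1127 ± 96.2. For Atp5b the difference was -0.28 ± 0.27 (adjusted p = 0.61 by edgeR).

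The size of the median depended on single libraries of both times. It was -0.30 without ZT3 control replicate 1 and -0.15 without replicate 2, and it was -0.32 without ZT12 control replicate 3 and -0.14 without replicate 2. Without the 3 libraries carrying vas deferens or spermatid transcripts, 75 of 81 genes were lower and the median was -0.40. Under that setting Ndufs1 differed by -0.62 and Uqcrc2 by -0.66. This leaves 1 ZT3 control library, replicate 2, assumed to vary like the other groups. Its summary was the highest of its group (0.27, against -0.06 and 0.15). It was also highest for Ndufs1 (206 CPM, against 134 and 172) and Uqcrc2 (219.8 CPM, against 160.4 and 208). Keeping that library and leaving out the foreign transcripts cannot be told apart here. Leaving out ZT3 shiftwork replicate 3 alone, which enters this contrast through the shared spread, gave 6 calls of 79 genes (background 17.8 percent, so a share below that of all genes), among them Ndufa4l2, Cox4i2 and Uqcrc2. Macrophage markers moved the other way over the same contrast. All 12 were higher, with 3 called, Cd14, Csf1r and Ms4a7 (background 2.93 percent called and higher). Their sums were 857 to 1097 CPM at ZT3 and 1566 to 2679.5 CPM at ZT12. Sums of adipocyte markers overlapped (28935 to 49339 and 36386 to 44959.5 CPM). The part of either list in the result was not tested.

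**Figure D3:**
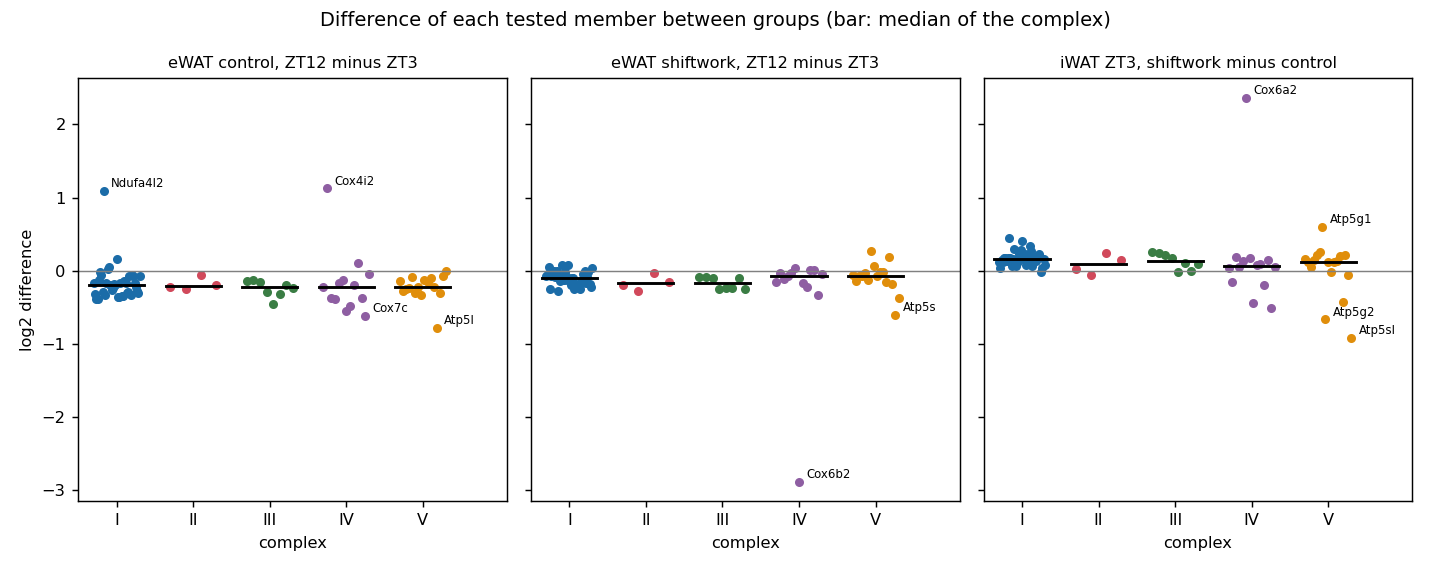
Each point is the log2 difference of 1 tested gene (y axis) by complex (x axis), and bars are medians of the complex, for ZT12 minus ZT3 in eWAT control, the same in eWAT shiftwork, and shiftwork minus control in iWAT. Points cluster close to the bars, with medians between -0.23 and -0.19 in the first panel, and the labelled genes are the farthest from their complex, such as Ndufa4l2 at 1.09.

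The 1 called gene, Ndufa4l2 (chr10:127514939-127517156), encodes a relative of Ndufa4 that hypoxia-inducible factor raises and that lowers complex I activity when oxygen is scarce, and it is abundant in pericytes. In eWAT it was at 7.59, 5.50 and 5.32 CPM in ZT3 control, 11.5, 11.5 and 12.6 CPM in ZT3 shiftwork, 15.1, 9.36 and 14.8 CPM in ZT12 control and 10.04, 11.1 and 14.2 CPM in ZT12 shiftwork. ZT3 control was the lowest group, below every library of the other 3. The control difference between times was 1.09 ± 0.23 (SE, log2; adjusted p = 0.0359 by edgeR), and the same difference in shiftwork mice was -0.01 ± 0.23. At ZT3 shiftwork exceeded control by 0.95 ± 0.23 (adjusted p = 0.194 by edgeR, 0.0126 by DESeq2), and the interaction of schedule and time was -1.10 ± 0.32 (adjusted p = 0.425 by edgeR), so the time differences of the schedules were not shown to differ after adjustment.

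The call for Ndufa4l2 was close to the threshold. Its adjusted p ran from 0.0179 to 0.183 when libraries were left out in turn, it was 0.06 with the replicate number as a block and 0.0692 without the 3 libraries that carried other tissues, and the estimate stayed between 0.96 and 1.29 throughout. Ndufa4, its ordinary relative, which is a part of complex IV despite its name, was at 118, 144 and 124 CPM in ZT3 control and 103, 91.7 and 120.1 CPM in ZT12 control, overlapping between times, with a mean that was higher at ZT3.

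Cox4i2, the other oxygen-responsive isoform (chr2:152754173-152765037), had the same order of groups at a lower level. Its values were 2.45, 2.05 and 2.69 CPM in ZT3 control, 4.08, 5.59 and 2.45 CPM in ZT3 shiftwork, 5.46, 3.26 and 6.98 CPM in ZT12 control and 3.52, 3.73 and 4.54 CPM in ZT12 shiftwork. The control libraries did not overlap between times, with a difference of 1.13 ± 0.36 (SE, log2; adjusted p = 0.101 by edgeR, and 0.0289 by DESeq2, with a background of 14.3 percent called). Cox4i1, with which it alternates in the enzyme, was at 271, 360.2 and 302 CPM in ZT3 control and 249, 233 and 312 CPM in ZT12 control, with overlap. Cox4i2 too is a pericyte transcript, and a list of 7 pericyte markers, added after seeing these values, summed to 652 to 832 CPM in ZT3 control and 1049.9 to 1249.5 CPM in ZT12 control without overlap. Of all tested genes, 19.3 percent were higher without overlap. All 7 markers were higher, with a median of 0.65 and 0 called by edgeR (background 3.69 percent). An unadjusted p under 0.05 was found for 3 (background 22.4 percent). Rgs5, also on the list, differed by 0.74 ± 0.27. Of 8 hypoxia target genes, also listed after seeing the data, 4 were higher and 4 lower, with a median of -0.04. The 1 called, Egln3, was lower (-2.22 ± 0.32, adjusted p = 0.0168 by edgeR, background 3.69 percent called). What part either had in the values of Ndufa4l2 and Cox4i2 was not tested.

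**Figure D4:**
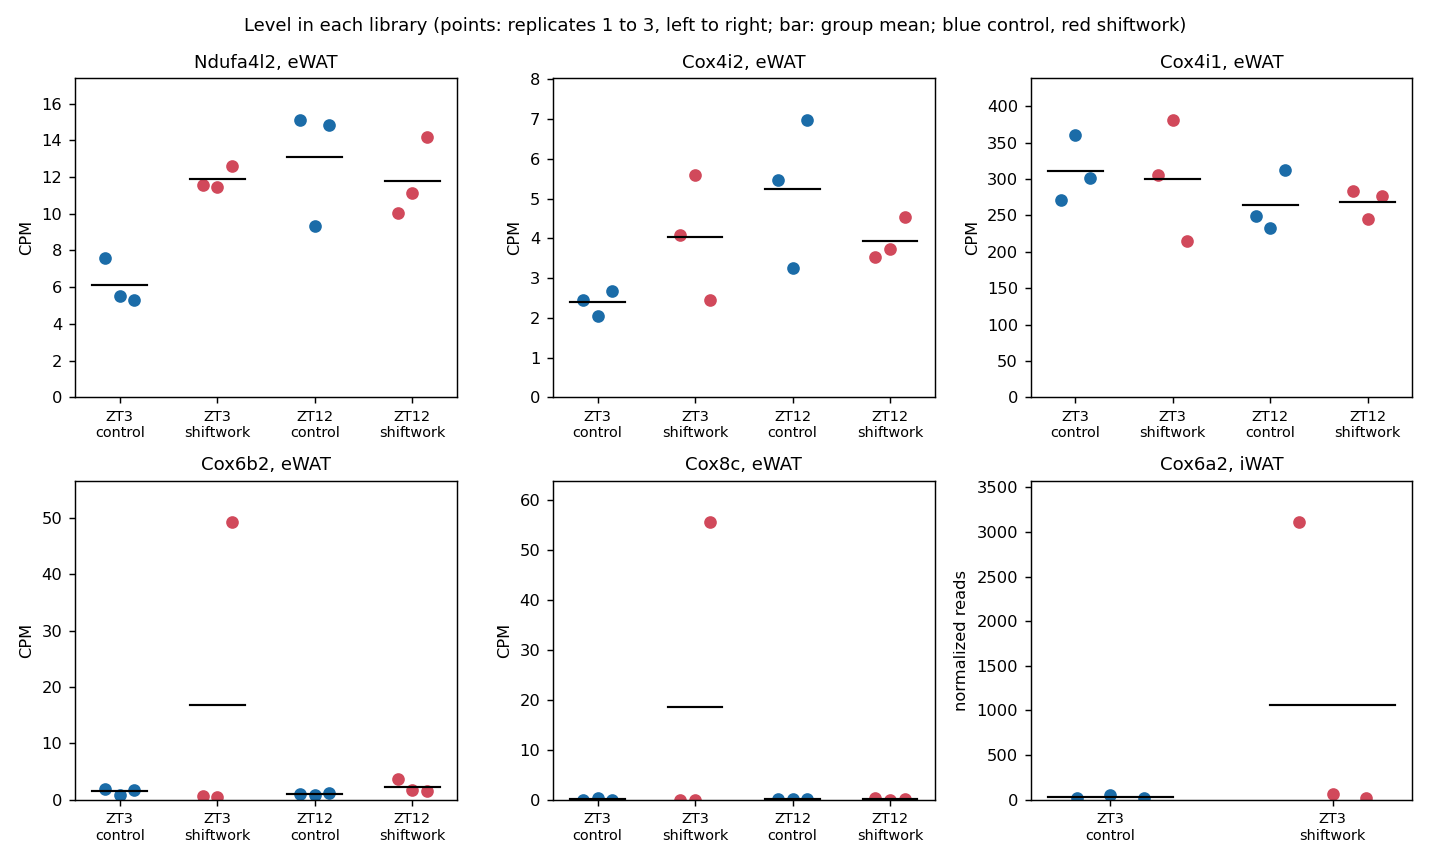
Levels in each library (points; CPM on the y axis, normalized reads for Cox6a2) of 5 genes in the 4 eWAT groups and of Cox6a2 in the 2 iWAT groups, with bars for group means. Ndufa4l2 and Cox4i2 are lowest in ZT3 control, Cox4i1 overlaps between all groups, and Cox6b2, Cox8c and Cox6a2 each owe their group mean to 1 library.

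In shiftwork eWAT the comparison of ZT12 with ZT3 gave a smaller median and no called gene. Here 68 of 78 genes were lower with a median of -0.10, against -0.03 over all genes, and the complex medians ran from -0.18 (II) to -0.08 (V). edgeR called 0 subunit genes (background 0 percent), DESeq2 0 (background 1.9 percent) and limma on log2 FPKM 0, and 1 gene, Atp5s, had an unadjusted p under 0.05 (background 16.3 percent). Atp5s, a coupling factor, was at 12.0, 12.7 and 18.5 CPM at ZT3 and 8.83, 9.35 and 10.2 CPM at ZT12, a difference of -0.61 ± 0.19 (adjusted p = 0.28 by edgeR). No gene was higher without overlap (background 9.05 percent) and 2 were lower, Atp5s and Atp5sl (background 7.59 percent).

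The direction of this median rested on single libraries. Without ZT3 shiftwork replicate 3, the library with spermatid transcripts, it was -0.33, with 34 genes at an unadjusted p under 0.05 (background 16.6 percent), and without replicate 2 it was 0.10, with 24 of 80 genes lower. Without both, leaving 1 ZT3 shiftwork library, it was -0.14 with 69 of 81 genes lower. The interaction, the shiftwork effect at ZT12 minus that at ZT3, had a median of 0.08, with 62 of 78 genes positive. edgeR called 0 subunit genes (background 0 percent), as did limma on log2 FPKM and DESeq2 (background 1.24 percent for DESeq2), and Ndufa4l2 and Cox4i2 had an unadjusted p under 0.05 (background 10.1 percent), both negative. Its sign too rested on single libraries: the median was -0.11 without ZT3 shiftwork replicate 3, with 62 of 79 genes negative, 0.31 without replicate 2 and 0.05 without the 3 libraries carrying other tissues. It ran from 0.01 to 0.21 when a control or ZT12 shiftwork library was left out.

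Shiftwork and control eWAT differed by less than the spread between libraries at either time. At ZT3 57 of 78 genes were lower than in control, with a median of -0.05 against 0.06 over all genes. edgeR called 0 genes (background 0 percent), limma on log2 FPKM 0 and DESeq2 1, Ndufa4l2 (background 4.15 percent for DESeq2). An unadjusted p under 0.05 was found for 3 genes, Ndufa4l2, Atp5s and Cox6b2, all higher (background 18.8 percent). Cox6b2 was at 0.665, 0.437 and 49.2 CPM in shiftwork and 1.95, 0.779 and 1.81 CPM in control, so only the library with spermatid transcripts was above control. Atp5s was also highest in that library, at 12.0, 12.7 and 18.5 CPM against 10.6, 10.7 and 8.40 CPM. Groups did not overlap for 3 genes that were higher, Ndufa4l2, Atp5s and Cox7a2l (background 7.64 percent), and for 0 that were lower (background 4.33 percent). Without ZT3 shiftwork replicate 3 the median was 0.15, without replicate 2 it was -0.26, and without the 3 libraries carrying other tissues it was -0.02.

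At ZT12 the median was 0.04, with 63 of 78 genes higher in shiftwork, and edgeR called 0 subunit genes (background 0 percent), as did limma on log2 FPKM and DESeq2 (background 0.0462 percent for DESeq2), with 0 at an unadjusted p under 0.05 (background 2.34 percent). Cox6b2 was the 1 gene higher without overlap (background 5.91 percent), at 1.09, 0.898 and 1.12 CPM in control and 3.61, 1.70 and 1.47 CPM in shiftwork, and none was lower (background 6.55 percent). Core subunits and Cox4i1 overlapped. Ndufs1 was at 138 ± 6.76 CPM (SD, n = 3) in control and 141 ± 2.31 in shiftwork, and Sdha at 433 ± 29.7 and 437 ± 24.5. Uqcrfs1 was at 108 ± 12.3 and 112 ± 6.28, and Cox4i1 at 265 ± 41.97 and 268 ± 20.7. Atp5a1, the alpha subunit of ATP synthase, was at 763 ± 47.4 and 785 ± 22.9. For Atp5b the difference was 0.02 ± 0.27, a standard error that leaves room for changes of the size seen between times of day. The median was -0.03 without ZT12 control replicate 2, 0.14 without replicate 3, 0.00435 without ZT12 shiftwork replicate 1 and 0.09 without replicate 2, the library with intestine markers.

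The testis isoforms were high in the eWAT library with spermatid markers, and Cox6a2 was high in the iWAT library with the most skeletal muscle markers. Cox6b2, Cox7b2 and Cox8c, cytochrome c oxidase subunits of the germ line, were at 49.2, 25.4 and 55.5 CPM in eWAT ZT3 shiftwork replicate 3. In the other 11 eWAT libraries Cox6b2 ran from 0.437 to 3.61 CPM, Cox7b2 from 0 to 0.223 CPM and Cox8c from 0 to 0.446 CPM, where 3 reads correspond to 0.0415 to 0.147 CPM. The protamine Prm2 was at 1232 CPM in the same library and at 18.1 CPM or less in the others. In iWAT, Cox7b2 and Cox8c had no read in any of the 6 libraries, which allows up to 0.0539 to 0.105 CPM (3 reads, counting error only). Cox6a2, the heart and skeletal muscle isoform, was at 22.8, 49.9 and 21.9 normalized reads in iWAT control and at 3107, 69.2 and 16.5 in shiftwork; its common counterpart Cox6a1 was at 5211, 5561 and 9239.6 and at 6814, 7408 and 7021. The muscle enzyme Ckm was at 306247 normalized reads in the shiftwork library where Cox6a2 was high, and at 265 to 4175 in the others. Without that library the Cox6a2 difference fell from 2.37 to 0.21 on the log2 scale. In eWAT the skeletal muscle sums were highest in ZT3 control replicates 1 and 3 (326 and 266 CPM). Cox6a2 was not high there, at 0.150 and 0.0976 CPM, and its highest eWAT value was 0.662 CPM in ZT12 control replicate 2.

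In iWAT, labelled ZT3, shiftwork against control gave a small positive median that did not hold without single libraries. Of 80 genes 67 were higher in shiftwork, with a median of 0.14 against 0.02 over all 16387 tested genes, and complex medians ran from 0.06 (IV) to 0.16 (I, with 36 of 37 genes higher). limma called 0 genes (background 0 percent), as did edgeR on the recovered reads, and 1 gene, Atp5sl, had an unadjusted p under 0.05 (background 6.68 percent). On the authors' RPKM scale, where the median over all genes moved to -0.12, the median of the subunits was -0.01 and 42 of 80 were lower, so the 2 scales differ on direction, with the subunits above the median of all genes on both.

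Levels of the core subunits overlapped. Atp5b was at 33986, 39243 and 60659 normalized reads in control and 55215, 47301 and 39673 in shiftwork, a difference of 0.12 ± 0.29 (adjusted p = 0.907 by limma). Sdha was at 12748, 12573 and 22527 against 17519, 15611 and 13776 (0.02 ± 0.28), and control replicate 3 was the highest of the 6 libraries for both genes. Groups did not overlap for 1 gene that was higher, Atp5g1 (background 7.34 percent), and 2 that were lower, Atp5l and Atp5sl (background 5.59 percent). Without control replicate 3 the median was 0.35 and 1 gene was called (background 2.37 percent), and without control replicate 1 it was -0.02. Without shiftwork replicate 1 it was 0.02, without replicate 3 it was 0.23, without control replicate 2 it was 0.07, and without the 3 libraries carrying B cell or muscle transcripts, which leaves 1 control library, it was -0.40 with 76 of 80 genes lower.

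Atp5sl (chr7:25619414-25625550) had the lowest p of the subunit genes in iWAT. It was at 1250.4, 1504 and 716 normalized reads in control and 599.8, 563 and 583 in shiftwork, without overlap, and the 3 shiftwork libraries were close together. The difference was -0.92 ± 0.29 (SE, log2; adjusted p = 0.688 by limma). In the authors' deposited table it was -0.95 with an adjusted p of 0.144, and no subunit gene there had an adjusted p below this. It was the gene called without control replicate 3 (-1.24 ± 0.17, adjusted p = 0.0307 by limma). The 2 control libraries in which it was highest were those with the highest B cell sums, and without them and shiftwork replicate 1 the difference was -0.32 ± 0.31; the part of these cells was not tested.

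The subunits encoded by mitochondrial DNA could be read in iWAT alone, since the eWAT table listed none of them. Of 13 such genes, 7 passed the filter and the other 6 were listed at 0 in all 6 libraries. They summed to 26534, 14559 and 40292 CPM in control and 18172, 26926 and 17542 CPM in shiftwork. Control replicate 3 was the highest library for both genomes. Shiftwork replicate 1 was second highest for the nuclear subunits, at 0.28 on normalized reads and 0.11 on the authors' RPKM scale. Its mitochondrial sum, on the CPM scale, was above only those of control replicate 2 and shiftwork replicate 3. The scales differ, so the 2 orders are not directly comparable. With limma 2 of the 7 were higher and 5 lower, with a median of -0.14 and 0 called or at an unadjusted p under 0.05; edgeR on recovered reads called 0 genes in all. mt-Co1, a catalytic subunit of complex IV, differed by -0.12 ± 0.41.

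The shiftwork effect in iWAT was set against that in eWAT at ZT3 as a difference of differences within tables, with the time of iWAT as labelled; whether the times match cannot be told from the label numbers. It was 0.23 in median over 79 genes, with 70 larger in iWAT, and limma called 0 subunit genes (background 0.014 percent), with 1 at an unadjusted p under 0.05 (background 11.6 percent), Atp5sl, at -1.25 ± 0.34 (adjusted p = 0.264 by limma). The median was -0.03 without eWAT ZT3 shiftwork replicate 3 and 0.46 without iWAT control replicate 3, where Atp5sl was called (background 3.55 percent). It was 0.15 without the 3 eWAT libraries carrying other tissues, -0.31 without the 3 iWAT libraries carrying B cell or muscle transcripts, 0.10 without iWAT shiftwork replicate 1 and 0.08 without iWAT control replicate 1.

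Genes that work beside the subunits had medians of the same sign in control eWAT between times. Of 46 assembly factors 33 were lower (median -0.13), of 76 mitochondrial ribosome proteins 60 (-0.12), of 13 citric acid cycle enzymes 10 (-0.20), of 17 electron carrier genes 11 (-0.07) and of 9 carriers and channels 9 (-0.28). edgeR called none of these, with 3, 4, 2, 2 and 0 at an unadjusted p under 0.05 (background 22.4 percent). Fatty acid oxidation differed in sign, with 11 of 15 higher and a median of 0.12. Cyc1, cytochrome c1 of complex III, whose symbol fell outside the choice, was at 103, 153 and 141 CPM at ZT3 and 91.4, 89.9 and 107 CPM at ZT12 in control. It was lowest at 59.5 CPM in ZT3 shiftwork replicate 3 and highest at 162 CPM in replicate 2, as the subunits were.

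With all libraries, none of the regulators of this gene program was called by edgeR in eWAT or by limma in iWAT. Ppargc1a, the coactivator that drives mitochondrial biogenesis, was at 7.47, 12.3 and 4.35 CPM in ZT3 control, 6.93, 8.80 and 15.3 CPM in ZT3 shiftwork, 3.80, 4.92 and 5.12 CPM in ZT12 control and 5.00, 5.71 and 5.16 CPM in ZT12 shiftwork. It was highest in the library where the subunits were lowest. The difference between times was -0.80 ± 0.39 in control and -0.97 ± 0.39 in shiftwork (adjusted p = 0.259 and 0.284 by edgeR). Without the 3 libraries carrying vas deferens or spermatid transcripts, which leaves 1 ZT3 control library, the control difference was -1.46. That library, replicate 2, had the highest Ppargc1a of its group (12.3 CPM). Replicate 3, which was left out, lay within the ZT12 control range (4.35 against 3.80 to 5.12 CPM). Tfam, which packages and transcribes mitochondrial DNA, was at 56.2 CPM in ZT3 shiftwork replicate 3 and at 27.1 to 34.6 CPM in the other 11 libraries. Without that library it was called lower at ZT12 in control, with a difference of -0.28 ± 0.08 (adjusted p = 0.0391 by edgeR, background 17.8 percent). Esrra, Nrf1 and Gabpa, which bind promoters of respiratory genes, differed between times in control by -0.08 ± 0.19, -0.0017 ± 0.11 and 0.15 ± 0.11. In iWAT Ppargc1b, a related coactivator, differed by -0.41 ± 0.21 with shiftwork and Esrra by 0.03 ± 0.17, and limma called none of the 18 regulators tested (0 at an unadjusted p under 0.05).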

How the data were processed

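RNA sequencing libraries from eWAT (12) and iWAT (6) were made with an mRNA kit and single reads of 51 cycles, per the labels. In the submitters' processing notes the mouse builds mm10 and GRCm38 stand beside the tools STAR and HTSeq, DESeq2, edgeR and limma, with no version or role for any. The strand used for counting is not given in the sources used here, so antisense, overlapping and paralogous transcripts cannot be told apart.

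For eWAT the authors deposited whole-number read counts (0 rows without a symbol) and log2 FPKM. For iWAT the deposited read table holds normalized signal, counts divided by a size factor per library: whole reads were recovered for 100 percent of 310956 values (tolerance 1e-06), and edgeR on them called 0 genes. The authors also deposited RPKM for iWAT, and their own comparison as log2 fold change and p-value.

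The members and gene lists were chosen with earlier results of these data known. The pericyte, hypoxia and clock lists, the motif ACGTG and 4 settings that leave out libraries (iWAT with B cell or muscle transcripts, for 2 comparisons; ZT3 shiftwork replicates 2 and 3, also for 2) were added after seeing the data.

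R 4.3.3 with edgeR 4.0.16 was used for the eWAT counts (quasi-likelihood, robust, TMM, filterByExpr with minimum count 10 and minimum total 15), all 12 libraries in 4 groups. iWAT values were fitted with limma 3.58.1 (trend, robust) on log2(value + 1) for genes at 10 or more in at least 3 libraries, as was the difference between depots over 18 libraries. A fold change on that scale understates changes of low genes. P-values were adjusted by Benjamini-Hochberg over all genes tested, with calls at 0.05. The fits were also run on simulated data with larger changes than most subunits showed and no swing of whole libraries. That run therefore does not bear on the calls reported here. Alternatives were DESeq2 1.42.0, RLE scaling, no filter, pseudocount 0.1, FPKM or RPKM, a replicate block and leaving out libraries. CPM used TMM library sizes for single genes.

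Genes are named by rule: every called member, the smallest p per complex and comparison, the 2 highest levels per complex, tissue-restricted isoforms, core subunits with Cox4i1, and 6 regulators. Other members named were chosen after their values were seen, for standing apart or for groups that did not overlap. Libraries with the same replicate number deviated together (every correlation over 0.1) only for eWAT ZT12 control and shiftwork (0.31, 0.132 and 0.203). Their label numbers differ (14, 15 and 16 against 45, 46 and 47), so these correlations do not show that the libraries are pairs. Motifs were read from RefSeq promoters (GRCm38.p6), and 51-base stretches were compared between annotated GRCm38 transcripts.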

Additional observations from a re-analysis of the deposited data

How the results depend on the processing

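Of the 258 summary values recomputed under alternatives, 237 kept their side of the threshold or stayed within the limits set. That is not a count of medians that kept their sign. With libraries left out in turn, the median kept its sign in control eWAT between times (-0.32 to -0.14). It changed sign in every other comparison, such as -0.26 to 0.15 for shiftwork at ZT3. In control eWAT between times, 1 subunit gene was called, Ndufa4l2. That count was 0 without a filter on low counts and 0 with only the 2 groups compared. It was 4 with DESeq2 (14.3 percent of all genes were called). It ran from 0 to 6 when libraries were left out in turn. With the replicate block it was also 0 (adjusted p of Ndufa4l2 0.06 by edgeR). The replicate numbers were not shown to pair the libraries in any comparison. For shiftwork against control at ZT12 the block left the count at 0 and changed no other call. DESeq2 called 1 subunit gene for shiftwork at ZT3. Leaving out libraries gave 0 to 1 calls in iWAT and 0 to 1 for the difference between depots. The iWAT median turned from 0.14 to -0.405 without control replicates 1 and 2 and shiftwork replicate 1, and without them the median of the difference between depots turned from 0.23 to -0.31.

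Counts over all genes moved more. Between times in control they were 559 with edgeR, 2168 with DESeq2, 320 without a filter, 298 with the block, 753 with 2 groups, and 1 to 2744 with libraries left out. DESeq2 called 629 genes for shiftwork at ZT3, 288 between times in shiftwork, 187 for the interaction and 7 for shiftwork at ZT12, where edgeR called 0 each. Leaving out libraries gave 0 to 403 at ZT3, 0 to 186 for the interaction, 0 to 389 in iWAT and 0 to 507 between depots (2 with all libraries, 0 with the block). The cause of these moves was not tested. With 3 libraries a group, standard errors near 0.2 to 0.3 for typical subunits limit what could be called.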
